A study of Mus musculus with 8 samples.

Results

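The 10 genes described here encode FGF ligands (Fgf1, Fgf2, Fgf5, Fgf7, Fgf10 and Fgf18) and FGF receptors (Fgfr1, Fgfr2, Fgfr3 and Fgfr4). They were taken by name from the 18768 genes of the deposited count table, and all 10 were in it. The list was drawn up around Fgf10, which was chosen by its measured rise in the lines labelled IRF8 KO, so its difference between the labels is a description and carries no test. The RNA came from 4 stable fibrosarcoma cell lines. Each line had been grown from a mouse tumor raised with methylcholanthrene (MCA), a chemical carcinogen injected under the skin in peanut oil. Lines MC010 and MC011 came from IRF8 knock-out (KO) mice and lines MC654 and MC659 from wild-type (WT) C57BL/6 mice. IRF8 is a transcription factor of the interferon regulatory factor family. All lines had the same carcinogen, digestion with collagenase, culture for at least 10 passages and medium, and none was treated before the RNA was isolated. Each line is 1 tumor and gave 2 libraries, so a label has 4 libraries but only 2 lines.

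FGF ligands are secreted proteins that bind receptor tyrosine kinases at the cell surface together with heparan sulfate chains. The receptors signal through the adaptor FRS2 to the RAS and ERK kinases and to PI3 kinase. Fibroblasts and other mesenchymal cells mainly carry FGFR1. They secrete FGF7 and FGF10, a pair of closely related ligands that act on the splice form of FGFR2 found in epithelial cells. FGF10 is best known for starting the growth of limb buds and lung branches. FGF2 binds several receptors, FGFR1 among them, and is a classic growth factor of fibroblasts.

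The libraries held between 74063616 and 116206078 counts. Expression is given in CPM, counts scaled to the same effective library size. The floor of a library was set at 3 counts, or 0.0262 to 0.0408 CPM, and covers nothing but counting error. Of the 18768 genes, 15153 passed a filter on low counts and were tested by quasi-likelihood in edgeR, with p adjusted by the method of Benjamini and Hochberg. A gene was called where the adjusted p was under 0.05 and the log2 change was past 0.59 either way, and SE is the standard error of that change. The p-values between labels rest on the spread among the 4 libraries of a label. That spread mixes lines with libraries, and the test counts the libraries as independent. Those between lines rest on the spread between the 2 libraries of a line. On lines alone, 2 against 2, an exact test cannot give a p below 0.333. From PCR genotyping of the lines, the paper reports MC010 and MC011 as IRF8 KO and MC654 and MC659 as WT. RNA of the gene deleted by label nonetheless ran against the labels. Irf8 had 442 and 347 counts in MC010 and 32 and 10 in MC011, against 1 and 2 in MC654 and 1 and 0 in MC659. Groups are therefore named by label below, and every direction follows the labels. Vimentin (Vim), a mesenchymal marker, was high in all lines, with 4532 to 7384 CPM, and all 10 fibroblast or mesenchymal markers looked for were in the table.

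The lines shared the leading receptor and the leading ligand but differed in the other ligands. Per kb of exon, Fgfr1 gave nearly all receptor RNA and Fgf7 most ligand RNA in all 8 libraries. The second ligand was Fgf10 in the libraries labelled IRF8 KO and Fgf2 in those labelled WT. Among the members tested other than Fgf10, Fgf2 had the smallest adjusted p between the labels. The lines of the KO label also differed from each other in Fgf5, Fgf7, Fgfr2 and Fgfr3.

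**Figure D1:**
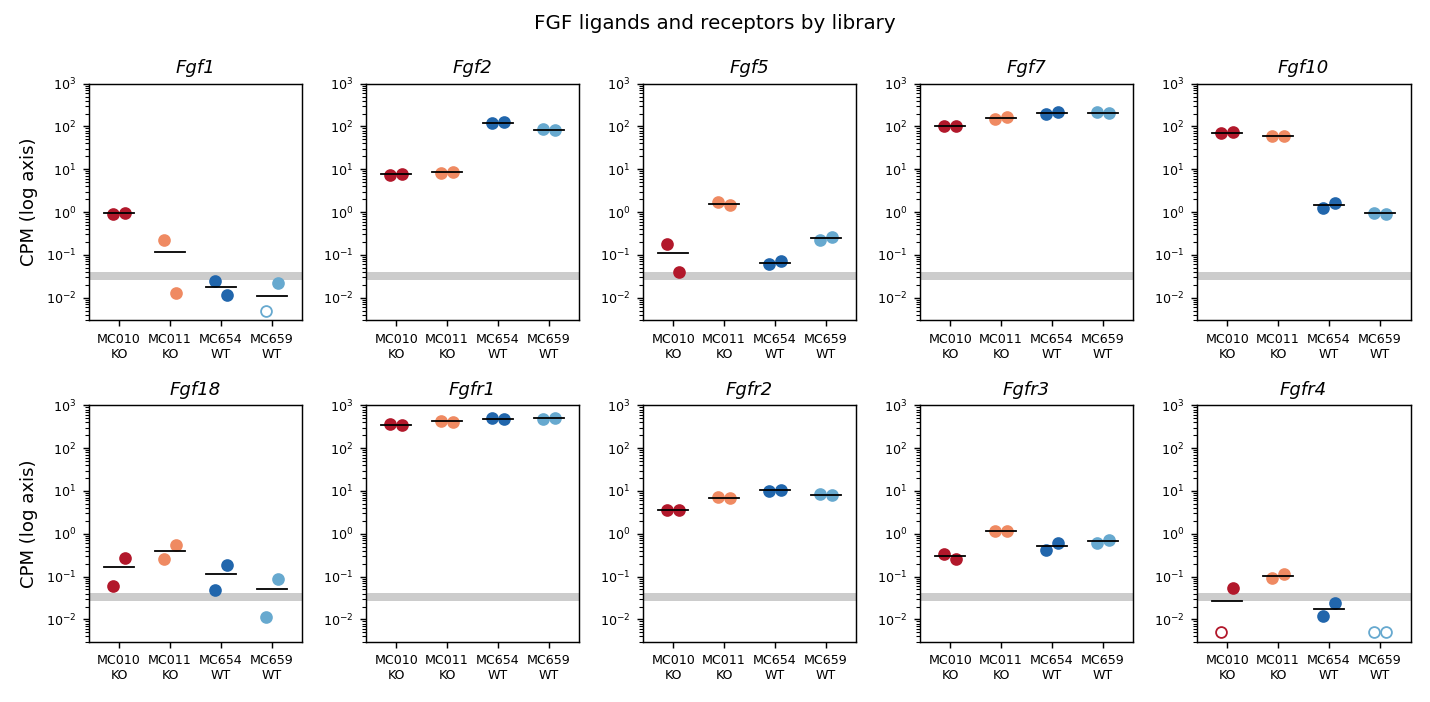
CPM of each FGF ligand and receptor (log axis) in the 2 libraries of each line, with a bar at the line mean, open circles for libraries at 0 counts and a grey band for the range of the floor over libraries. Fgf10 lies between 58.7 and 74.0 CPM in the KO-labelled libraries and between 0.923 and 1.66 CPM in the WT-labelled ones, and Fgf2 runs the other way.

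Upstream sequences are shown for Fgf10 and Fgf7, because these ligands share a receptor form while only Fgf10 was chosen for its rise. Each is the 250 bases before the gene's start in RefSeq (build GRCm38.p6, plus strand), which lie in no annotated exon. Both windows fall within annotated genes, that of Fgf10 within the span of Fgf10, which starts further upstream, and that of Fgf7 within Fam227b. Capitals mark a GC box, the letters GGGCGG, found on the opposite strand and so printed as its complement.
Fgf10, chr13:118714449-118714698: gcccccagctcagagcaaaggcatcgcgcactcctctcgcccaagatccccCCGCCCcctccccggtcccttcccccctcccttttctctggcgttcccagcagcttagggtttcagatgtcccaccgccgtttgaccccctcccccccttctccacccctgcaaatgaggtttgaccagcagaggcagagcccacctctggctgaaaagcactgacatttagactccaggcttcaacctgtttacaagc
Fgf7, chr2:126034408-126034657: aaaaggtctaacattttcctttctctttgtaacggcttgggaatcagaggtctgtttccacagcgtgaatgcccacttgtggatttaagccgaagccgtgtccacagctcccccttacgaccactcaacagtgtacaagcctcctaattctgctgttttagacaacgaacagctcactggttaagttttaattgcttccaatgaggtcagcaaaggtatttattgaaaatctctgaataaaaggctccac
The Fgf10 window had 61.2% G or C and 1 GC box. The Fgf7 window had 43.6% and no GC box. Of the other members with a window, Fgf2, Fgf5, Fgf18, Fgfr3 and Fgfr4 also held a GC box, and Fgfr2 did not. Of 32851 such windows in the table of RefSeq starts, 32.7% held a GC box on either strand. The core of the interferon-stimulated response element (GAAA, any 2 bases, GAAA) was in 2.98% of windows and the ETS-IRF composite element (GGAA, any 2 bases, GAAA) in 2.30%. No stretch of bases matches both on 1 strand, since they differ at the second letter. Neither was found on either strand in the windows of the 8 members that had one. Fgf1 and Fgfr1 had no window. The absence of a match says only that these letters are not in these windows.

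The difference in Fgf10 was the one that chose the list. Fgf10 (ENSMUSG00000021732, chromosome 13 of mm10, 118669791 to 118792115, plus strand) had 69.8 and 74.0 CPM in MC010 and 58.7 and 59.9 CPM in MC011. MC654 was at 1.23 and 1.66 CPM and MC659 at 0.940 and 0.923. All 4 libraries labelled IRF8 KO were far above all 4 labelled WT. The means were 65.6 ± 7.51 and 1.19 ± 0.344 CPM (SD, n = 4 libraries of 2 lines), a ratio of 55.2 and a difference of 5.79 on the log2 scale (SE 0.23). Both WT lines still held Fgf10 reads, from 83 to 141 counts per library, above the floor of 3. The 4 differences of a KO-labelled from a WT-labelled line lay between 5.35 (MC011 minus MC654) and 6.27 (MC010 minus MC659) on the log2 scale.

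Within a label, Fgf10 differed little beside that. MC010 exceeded MC011 by 0.28 on the log2 scale (SE 0.07, edgeR adjusted p = 0.00214), short of the fold threshold. MC654 exceeded MC659 by 0.64 (SE 0.15, edgeR adjusted p = 0.0111), past both thresholds. That call rests on single libraries. It was lost without library 2 of MC654 (0.41, edgeR adjusted p = 0.146) and without library 1 (0.65, 0.0667) or library 2 (0.62, 0.0754) of MC659. The order of the lines was MC010, MC011, MC654 and MC659, and the only gap of more than 1 log2 unit was that between the labels.

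A transcript from the other strand went with Fgf10. Gm16263 runs from 118695292 to 118715396, its first base lies 697 bases past the RefSeq start of Fgf10, and it covers the window printed above. It had 185 and 90 counts in MC010 and 225 and 162 in MC011, against 4 and 1 in MC654 and 0 and 1 in MC659. The fitted change was 6.59 (SE 0.65, edgeR adjusted p = 0.000205), with the WT lines near the floor. Gm16263 shares 123 bases of exon with Fgf10, 2.67% of the exon length of Fgf10. The libraries were made with a stranded kit, but whether reads were counted by strand is not given in the sources used here, so reads of the shared part cannot be told apart.

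The 5 genes nearest to Fgf10 in their pattern over the 4 lines were found by the Euclidean distance between line means of log2 CPM centred on each gene, among 10688 genes with a mean log2 CPM of at least 1. They were Flt1, a receptor of VEGF (distance 0.408), Chst15, a chondroitin sulfate sulfotransferase (0.429), Dkk2, a modulator of Wnt signalling (0.552), Slc14a1, a urea transporter (0.612), and Etl4 (0.903). Flt1 had 108 and 105 CPM in MC010, 87.1 and 85.5 in MC011, 2.84 and 3.00 in MC654, and 2.03 and 1.49 in MC659. The likeness is a description over 4 lines. With genes down to a mean log2 CPM of 0 admitted, Pced1b came first (0.143), and 4 of the 5 remained.

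Fgf2 ran the other way. Fgf2 (ENSMUSG00000037225, chromosome 3, 37348346 to 37410108, plus strand) had 7.45 and 7.95 CPM in MC010 and 8.13 and 8.68 CPM in MC011. MC654 was at 118 and 125 CPM and MC659 at 87.0 and 81.4. No library labelled IRF8 KO came near one labelled WT. The means were 8.05 ± 0.510 and 103 ± 21.8 CPM (SD, n = 4 libraries of 2 lines), 12.8-fold lower under the KO label. That is -3.67 on the log2 scale (SE 0.16, edgeR adjusted p = 4.83e-06). Fgf2 was called in 8 of 8 fits with 1 library left out and in 4 of 4 with 1 line left out, where it ranged from -3.92 to -3.39. With the libraries of a line added together, the edgeR adjusted p was 0.0513 (unadjusted p = 0.000107). No gene had a smaller adjusted p in that fit. The adjustment can give several genes the same value, so Fgf2 need not rank first there.

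The order of the lines for Fgf2 was MC654, MC659, MC011 and MC010. MC654 exceeded MC659 by 0.53 on the log2 scale (SE 0.06, edgeR adjusted p = 1.33e-05), more than the spread between libraries but short of the fold threshold. MC010 and MC011, neighbours at the low end, were not told apart (-0.13, SE 0.07, edgeR adjusted p = 0.138).

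A pair of genes overlap Fgf2 on the other strand. Fgf2os, a noncoding antisense transcript, shares no exon with it. It had 73 and 81 counts in MC654 and 33 and 43 in MC659, against 0 and 1 in MC010 and 0 in both libraries of MC011. Taken against the floor of 3 counts per library, Fgf2os in MC659 was at least 10.4-fold above MC010, and in MC654 at least 24.1-fold above MC011 (edgeR adjusted p = 0.000281, label comparison). Nudt6 shares 640 bases of exon with Fgf2, which is 9.44% of the exon length of Fgf2 and 38.2% of that of Nudt6. Nudt6 had 4.99 to 6.38 CPM under the KO label and 3.01 to 3.94 under the WT label, the opposite direction to Fgf2 (log2 fold change 0.65, SE 0.15, edgeR adjusted p = 0.0124). That call fell short of the fold threshold without library 1 of MC654 (0.56), and it was lost with MC011 (0.50), MC654 (0.57, edgeR adjusted p = 0.0950) or MC659 (0.72, edgeR adjusted p = 0.0807) left out.

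Fgf7, the keratinocyte growth factor, was the most abundant ligand per kb. Fgf7 (ENSMUSG00000027208, chromosome 2, 126034658 to 126091185, plus strand) had 105 and 103 CPM in MC010 and 153 and 166 CPM in MC011. MC654 was at 194 and 214 CPM and MC659 at 216 and 208. The libraries of both labels did not overlap, but MC011 stood nearer to the WT lines than MC010 did. The means were 132 ± 32.7 and 208 ± 9.78 CPM (SD, n = 4), a difference of -0.66 on the log2 scale (SE 0.16, edgeR adjusted p = 0.0149). Without either library of MC010 the change was -0.56 and fell short of the fold threshold, and with MC010 left out as a line it was -0.40 (edgeR adjusted p = 0.000231). With MC654 or MC659 left out the change stayed near the full one (-0.69 and -0.64) while the edgeR adjusted p was 0.0949 and 0.124. MC010 minus MC011 was -0.62 (SE 0.06, edgeR adjusted p = 1.18e-07). That call too sits at the threshold, since it was -0.59 without library 2 of MC010 and -0.56 without library 2 of MC011. MC654 and MC659 were not told apart (-0.05, SE 0.06, edgeR adjusted p = 0.591).

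The remaining ligands were rare. Fgf5, known for ending the growth phase of hair, was mainly an MC011 transcript. Fgf5 (ENSMUSG00000029337, chromosome 5, 98254184 to 98277030, plus strand) had 1.69 and 1.43 CPM in MC011. MC010 was at 0.184 and 0.0408 CPM, MC654 at 0.0599 and 0.0706 CPM, and MC659 at 0.227 and 0.267 CPM. MC010 minus MC011 was -3.66 on the log2 scale (SE 0.47, edgeR adjusted p = 6.33e-06), in 8 of 8 fits with 1 library left out. The labels did not differ past the threshold (2.41, SE 1.06, edgeR adjusted p = 0.111), and their libraries overlapped. DESeq2 called the same difference (adjusted p = 0.0466), as did edgeR without library 2 of MC010 (2.79, adjusted p = 0.0371) or with MC010 left out (3.28, adjusted p = 0.000254). With MC011 left out it turned to -0.40. MC654 minus MC659 was -1.90 (edgeR adjusted p = 0.0486), at 5 and 6 against 20 and 24 counts, a call kept in 2 of 8 fits with 1 library left out. Without a library of MC011, MC654 or MC659 it was lost, with an edgeR adjusted p of 0.0688 to 0.176.

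Fgf18, a ligand of bone and lung development, was rare in every line. Fgf18 (ENSMUSG00000057967, chromosome 11, 33117430 to 33147400, minus strand) had 7 and 20 counts in MC010 and 25 and 43 in MC011, against 4 and 16 in MC654 and 1 and 8 in MC659. The label change was 1.73 (SE 0.82, edgeR adjusted p = 0.133), and the labels overlapped. It ran from 1.20 without library 2 of MC011 to 2.47 without library 2 of MC654, uncalled in each of the 8 fits with 1 library left out, and was called with MC010 left out (2.21, edgeR adjusted p = 0.0242). MC010 minus MC011 was -1.35 (edgeR adjusted p = 0.127). It was -0.54 without library 1 of MC010, -0.73 without library 2 of MC011 and -2.65 without library 2 of MC010, the only one of these fits that called it (edgeR adjusted p = 0.0294). The only pair of lines past both thresholds was MC011 above MC659, the ends of the order (2.94, SE 0.87, edgeR adjusted p = 0.00846).

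Fgf1, which binds all FGF receptors, did not pass the filter on low counts. Fgf1 (ENSMUSG00000036585, chromosome 18) had 105 and 71 counts in MC010, 21 and 1 in MC011, 2 and 1 in MC654, and 0 and 2 in MC659. It was thus an MC010 transcript, and the libraries of MC011 stood on either side of the floor. Fgf1 in MC010 exceeded the floor of 3 counts per library at least 26.1-fold for MC654 and at least 27.6-fold for MC659.

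Fgfr1, the main FGF receptor of mesenchymal cells, was the leading receptor per kb in every library. Fgfr1 (ENSMUSG00000031565, chromosome 8, 25513654 to 25575718, plus strand) had 367 and 343 CPM in MC010 and 425 and 419 CPM in MC011. MC654 was at 515 and 468 CPM and MC659 at 489 and 499. The labels did not overlap, though the change was small. The means were 389 ± 40.0 and 493 ± 19.8 CPM (SD, n = 4), a difference of -0.34 on the log2 scale (SE 0.08, edgeR adjusted p = 0.0112), short of the fold threshold in this and in 8 of 8 fits with 1 library left out. MC010 minus MC011 was -0.25 (SE 0.05, edgeR adjusted p = 0.000519). MC654 and MC659 were not told apart (-0.01, SE 0.05, edgeR adjusted p = 0.954).

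Fgfr2, the receptor whose epithelial form binds FGF7 and FGF10, made up 0.939% to 2.07% of receptor RNA per kb. Fgfr2 (ENSMUSG00000030849, chromosome 7, 130162451 to 133123350, minus strand) had 3.65 and 3.58 CPM in MC010 and 7.20 and 6.73 CPM in MC011. MC654 was at 10.2 and 10.4 CPM and MC659 at 8.54 and 7.90. MC010 stood lowest, and MC011 lay just under MC659. The means were 5.29 ± 1.95 and 9.25 ± 1.22 CPM (SD, n = 4), a difference of -0.81 on the log2 scale (SE 0.27, edgeR adjusted p = 0.0458). The call is a weak one. It was kept in 2 of 8 fits with 1 library left out, those without a library of MC011. Without a library of MC010, MC654 or MC659 it was lost, with an edgeR adjusted p from 0.0680 upward, and with the library number as a block the edgeR adjusted p was 0.0731. With MC010 left out as a line the change was -0.43, and with MC654 or MC659 left out it was -0.64 and -0.97 with an edgeR adjusted p of 0.270 and 0.129.

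The order of the lines for Fgfr2 was MC654, MC659, MC011 and MC010. MC010 minus MC011 was -0.95 (SE 0.11, edgeR adjusted p = 1.78e-06), in 8 of 8 fits with 1 library left out. MC011 and MC659 were neighbours that did not pass the test (-0.24, SE 0.10, edgeR adjusted p = 0.0573). The counts are for the whole gene and do not separate its epithelial and mesenchymal splice forms. The annotated span of Fgfr2 is long and runs over other genes, Chst15 among them. It shares 314 bases of exon, 3.04% of its own, with Ctbp2, which did not differ between the labels past the threshold (-0.08, edgeR adjusted p = 0.565).

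Fgfr3 split the KO-labelled lines around the WT lines. Fgfr3 (ENSMUSG00000054252, chromosome 5, 33721674 to 33737068, plus strand) had 0.332 and 0.259 CPM in MC010 and 1.15 and 1.16 CPM in MC011. MC654 was at 0.419 and 0.612 CPM and MC659 at 0.612 and 0.723. The libraries of MC010 were the lowest and those of MC011 the highest of the 8. MC010 minus MC011 was -1.95 (SE 0.34, edgeR adjusted p = 0.000127), in 8 of 8 fits with 1 library left out. MC011 exceeded MC654 by 1.16 (edgeR adjusted p = 0.00562) and MC659 by 0.79 (edgeR adjusted p = 0.0390). MC010 minus MC659 was -1.15 (edgeR adjusted p = 0.00841). MC010 against MC654 (-0.78, edgeR adjusted p = 0.0655) and MC654 against MC659 (-0.37, edgeR adjusted p = 0.531) did not pass. Over the labels the change was 0.30 (SE 0.52, edgeR adjusted p = 0.694). Its sign followed the lines, with -0.99 when MC011 was left out and 0.95 when MC010 was.

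Fgfr4 (ENSMUSG00000005320, chromosome 13, 55152640 to 55168759, plus strand) was at or near the floor and was not tested. It had 0 and 4 counts in MC010, 9 in each library of MC011, 1 and 2 in MC654 and 0 in both libraries of MC659.

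**Figure D2:**
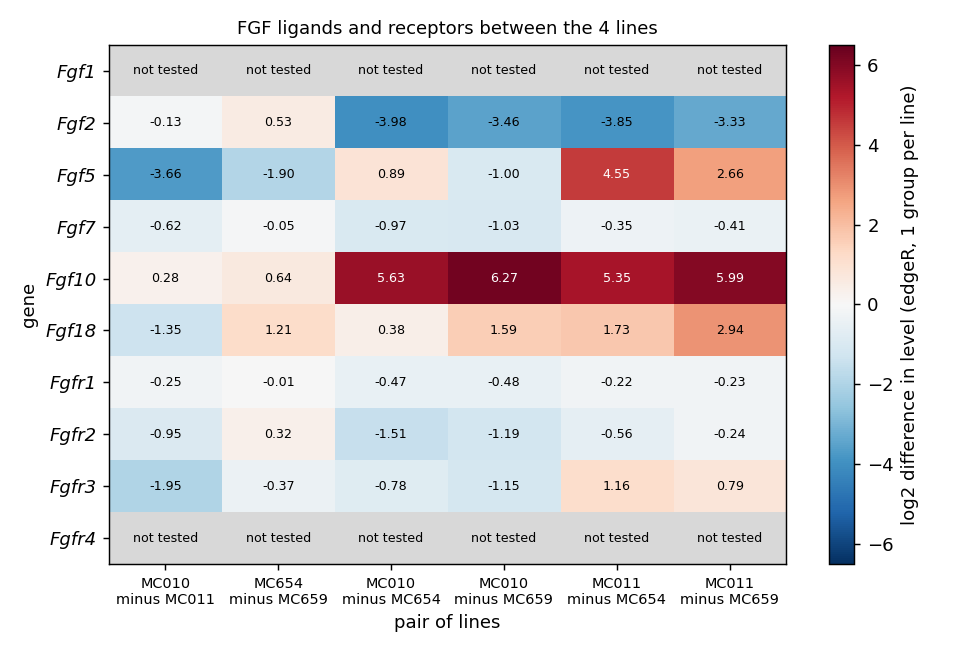
Log2 difference in level of each member (rows) for the 6 pairs of lines (columns), from the edgeR fit with 1 group per line. Grey rows were below the filter. Fgf10 is above 5 and Fgf2 below -3 in all 4 pairs of different labels, while Fgf5 changes sign among them and differs by -3.66 between MC010 and MC011.

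Taken by count, 7 members other than Fgf10 were tested in the label comparison. Among all genes tested, 13.7% were called higher and 8.72% lower, 22.5% in either direction. None of the 7 was called higher and 3 were called lower (Fgf2, Fgf7 and Fgfr2). All 4 KO-labelled libraries lay below all 4 WT-labelled ones for 4 of the 7 (these and Fgfr1), as they did for 20.5% of all genes, and above them for none, against 22.1% of all genes. Between MC010 and MC011, 4 of 8 members tested were called lower in MC010 and none higher, against 16.0% and 15.7% of all genes (31.6% in either direction). Between MC654 and MC659, 1 of 8 was called higher (Fgf10) and 1 lower (Fgf5), against 1.24% and 3.71% of all genes (4.95% in either direction). Across the labels, 3 of the 7 were called between MC010 and MC654 (Fgf2, Fgf7 and Fgfr2), where 35.9% of all genes were, and 4 between MC010 and MC659 (these and Fgfr3), where 36.8% were. MC011 gave 3 against MC654 (Fgf2, Fgf5 and Fgfr3), where 29.7% of all genes were called, and 4 against MC659 (these and Fgf18), where 30.3% were. These pairs share lines. The members were chosen with results of these data known and are few, so these counts are descriptions.

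Levels of different genes are compared per kb of exon. Summed over the 6 ligands, the level was 56.6 ± 8.96 CPM per kb under the KO label and 79.5 ± 3.74 CPM per kb under the WT label (SD, n = 4). Fgf7 made up 70.8 ± 6.60% of that sum under the KO label and 80.5 ± 3.62% under the WT label. The share of Fgf10 was 26.0 ± 6.83% against 0.323 ± 0.0797%, and that of Fgf2 was 2.12 ± 0.226% against 19.0 ± 3.57% (SD, n = 4 each). Fgf10 and Fgf2 thus took each other's place behind Fgf7, while the sum was lower in all 4 KO-labelled libraries. Fgfr1 held between 97.7% and 98.9% of the receptor sum in all 8 libraries. That sum was 40.0 ± 4.31 CPM per kb under the KO label and 50.9 ± 1.97 CPM per kb under the WT label.

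**Figure D3:**
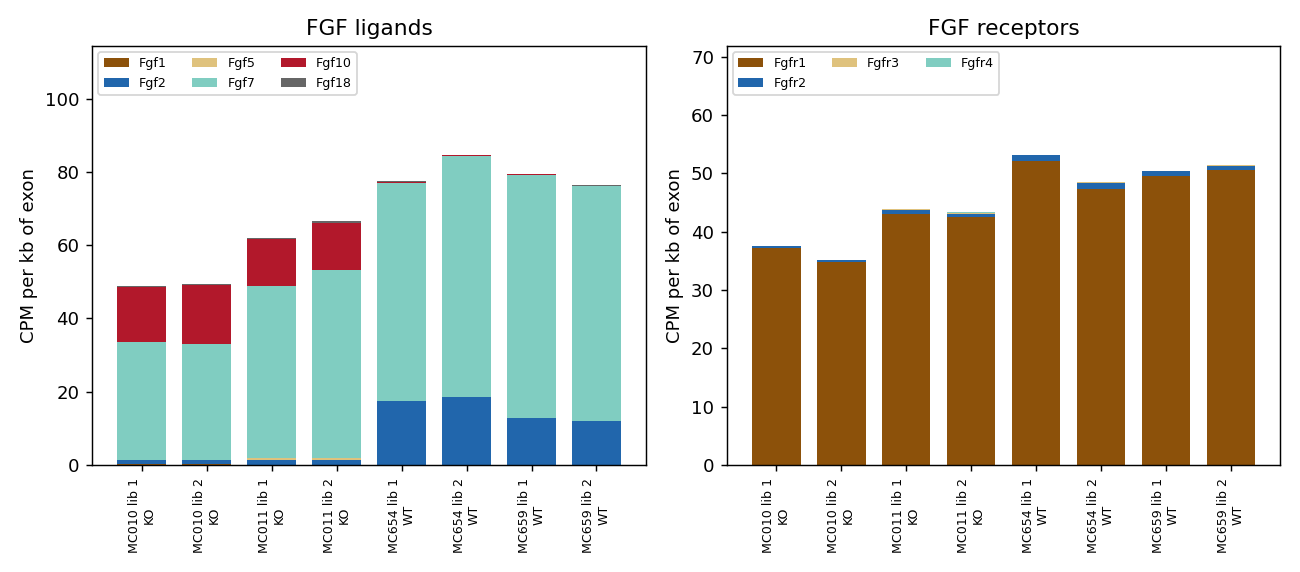
Stacked CPM per kb of exon of the 6 ligands (left) and the 4 receptors (right) in each of the 8 libraries. The Fgf10 segment is visible in the KO-labelled libraries and the Fgf2 segment in the WT-labelled ones, over a Fgf7 segment that is the largest in every library, and Fgfr1 fills nearly the whole receptor bar.

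Other genes of the FGF pathway were read from the same fit, by lists of ligands, binding proteins, signalling parts and response genes. Over these lists, 14 of 69 genes tested were called higher under the KO label and 5 lower, which is 20.3% and 7.25%, against 13.7% and 8.72% of all genes tested. Of 16 further FGF ligands, 4 were in the table and 2 were tested. Fgf11, a member that stays inside the cell, had line means of 0.991 and 0.411 CPM in MC010 and MC011, against 0.185 and 0.174 in MC654 and MC659 (1.96, SE 0.43, edgeR adjusted p = 0.00837). Its call was lost with MC654 or MC659 left out (edgeR adjusted p 0.0784 and 0.105). Fgf21, a hormone-like ligand of metabolism, was a WT-label transcript, with 65 and 42 counts in MC654 and 227 and 183 in MC659. It had 5 and 0 counts in MC010 and 0 and 1 in MC011. MC011 was thus under the floor, and against it MC654 was at least 16.7-fold and MC659 at least 60.6-fold higher (edgeR adjusted p = 0.00152, label comparison). The klothos Kl and Klb, the partner receptors of hormone-like FGFs, were listed but not in the table.

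Among co-receptors and ligand-binding proteins, 5 of 12 tested were called higher and 1 lower, with a median log2 change of 0.27 against 0.02 over all genes. Between MC010 and MC011, 4 were higher and 5 lower, against 15.7% and 16.0% of all genes. Flrt3, a membrane protein that binds FGF receptors, had 12.2 and 13.6 CPM in MC010 and 2.01 and 1.92 in MC011, against 0.467 to 0.971 CPM in the WT-labelled libraries (3.28, SE 0.74, edgeR adjusted p = 0.00974). Among the genes of its list that passed the filter, it differed most between MC010 and MC011 (2.71), and its label call was lost with MC654 or MC659 left out (edgeR adjusted p 0.0989 and 0.121). Sdc3, a heparan sulfate core protein, rose from 44.7 ± 3.07 to 129 ± 33.1 CPM (1.53, SE 0.18, edgeR adjusted p = 0.000435). Cdh2, N-cadherin, was higher mainly in MC011, with 185 and 181 CPM there against 72.8 and 74.2 in MC010 and 48.7 to 56.7 under the WT label (1.27, edgeR adjusted p = 0.0184). Without MC011 the Cdh2 change was 0.46, and without either library of MC659 the edgeR adjusted p was 0.0549 and 0.0551. Ncam1, a cell adhesion molecule that binds FGFR1, fell from 69.7 ± 7.85 to 28.4 ± 10.4 CPM (-1.30, SE 0.25, edgeR adjusted p = 0.00518). Sdc2 and Gpc1, further core proteins, were the other genes called higher, Sdc2 with 257 ± 41.7 against 153 ± 4.21 CPM (0.75, edgeR adjusted p = 0.00143) and Gpc1 with 249 ± 78.1 against 159 ± 10.3 CPM (0.65, edgeR adjusted p = 0.0403). With MC010 left out Sdc2 was at 0.52, short of the fold threshold. Gpc1 lost its call without any library of MC010, MC654 or MC659 (edgeR adjusted p 0.0703 to 0.101). Ncam1 lost its call with MC659 left out (-1.16, edgeR adjusted p = 0.0741).

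Of 12 enzymes that make or edit heparan sulfate, 2 were called higher and 1 lower (16.7% and 8.33%, median 0.20), shares near the 13.7% and 8.72% of all genes. Sulf2, which removes sulfate groups from the chains outside the cell, had 25.4 and 27.1 CPM in MC010 and 44.6 and 40.9 CPM in MC011. MC654 was at 1.63 and 1.14 CPM and MC659 at 2.07 and 2.46. The labels stood far apart (4.24, SE 0.31, edgeR adjusted p = 5.25e-05), also with any line left out (3.84 to 4.63). Hs3st1, a sulfotransferase, was at 0 counts in all 4 WT-labelled libraries. Taken against the floor of MC654, MC010 was at least 17.8-fold higher, and MC011 at least 6.82-fold. Glce, an epimerase of the chain, fell from 115 ± 8.69 to 54.7 ± 7.18 CPM (-1.07, SE 0.10, edgeR adjusted p = 0.000192). Between MC010 and MC011, 2 were higher and 5 lower, against 15.7% and 16.0% of all genes, and Hs3st3b1 differed most (-2.57, edgeR adjusted p = 0.000125).

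The adaptors and kinases between receptor and nucleus did not move past both thresholds. None of 24 was called, and the median log2 change was 0.01. Between MC010 and MC011, 1 was called higher and 5 lower (4.17% and 20.8%, against 15.7% and 16.0% of all genes), led by the adaptor Gab1 with 15.1 and 15.6 CPM in MC010 against 37.9 and 37.6 in MC011 (-1.30, edgeR adjusted p = 9.61e-11).

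Feedback inhibitors and response factors are genes that ERK signalling is known to induce. Of 10 feedback inhibitors, 2 were called higher and 1 lower (median 0.47), shares not far from the 13.7% and 8.72% of all genes. In MC010 against MC011, 5 were called higher and 2 lower (50% and 20%), against 15.7% and 16.0% of all genes. Spry2, a sprouty protein that restrains receptor tyrosine kinases, had 77.4 and 71.2 CPM in MC010 and 58.4 and 56.9 in MC011, against 22.6 and 22.2 in MC654 and 17.8 and 16.5 in MC659 (1.74, SE 0.15, edgeR adjusted p = 0.000102). Spry4 had 68.2 and 69.2 CPM in MC010 and 26.8 and 26.6 in MC011, against 17.8 and 14.5 in MC654 and 8.53 and 8.83 in MC659 (1.94, SE 0.42, edgeR adjusted p = 0.00841). Both were higher in every KO-labelled library, and Spry4 lost its call with MC659 left out (1.55, edgeR adjusted p = 0.109). Dusp4, a phosphatase of ERK, fell by 0.67 on the log2 scale (edgeR adjusted p = 0.00639), and its call was lost with MC011 (-0.49) or MC654 (-0.51, edgeR adjusted p = 0.0829) left out. Dusp6, another such phosphatase, was high in MC010 only, with a line mean of 388 CPM against 98.6 in MC011, 156 in MC654 and 96.3 in MC659 (MC010 minus MC011 1.98, edgeR adjusted p = 2.24e-14), and it did not pass between the labels (0.95, edgeR adjusted p = 0.184).

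Of 8 response transcription factors and cyclin D1, 3 were called higher and 1 lower (median 0.40), against the same 13.7% and 8.72%. In MC010 against MC011, 4 were called higher and 1 lower (50% and 12.5%), against 15.7% and 16.0% of all genes. Etv1, an ETS factor downstream of FGF signalling in development, had 87.7 and 95.4 CPM in MC010 and 42.9 and 42.4 in MC011, against 6.92 and 8.10 in MC654 and 5.84 and 6.13 in MC659 (3.32, SE 0.32, edgeR adjusted p = 0.000181). Fosl1, a subunit of AP-1, rose by 0.86 (edgeR adjusted p = 0.00119), and Etv5 by 0.71 (edgeR adjusted p = 0.0197) with its call lost without a library of MC010 (0.58 and 0.62) or of MC659 (0.65 each), where the edgeR adjusted p was 0.0433 to 0.0611. Egr1, an immediate early gene, went the other way. It had 65.1 and 63.0 CPM in MC010 and 26.6 and 26.4 in MC011, against 349.8 to 374 CPM under the WT label (-3.01, SE 0.34, edgeR adjusted p = 0.000389). Myc differed most between MC010 and MC011, with line means of 115 and 494 CPM (-2.10, edgeR adjusted p = 2.76e-14), and its label change of -1.46 did not pass (edgeR adjusted p = 0.0567).

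Of 3 factors known to act upstream of Fgf10 in limb and lung (Tbx4, Tbx5 and Isl1), only Isl1 was in the table. Isl1, a LIM homeodomain factor, had 13.2 and 13.3 CPM in MC010 and 8.24 and 8.80 in MC011, against 0.0556 to 0.397 CPM in the WT-labelled libraries (5.87, SE 0.58, edgeR adjusted p = 0.000212). It was called in all fits with 1 library or 1 line left out. No relation between Isl1 and Fgf10 was tested.

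**Figure D4:**
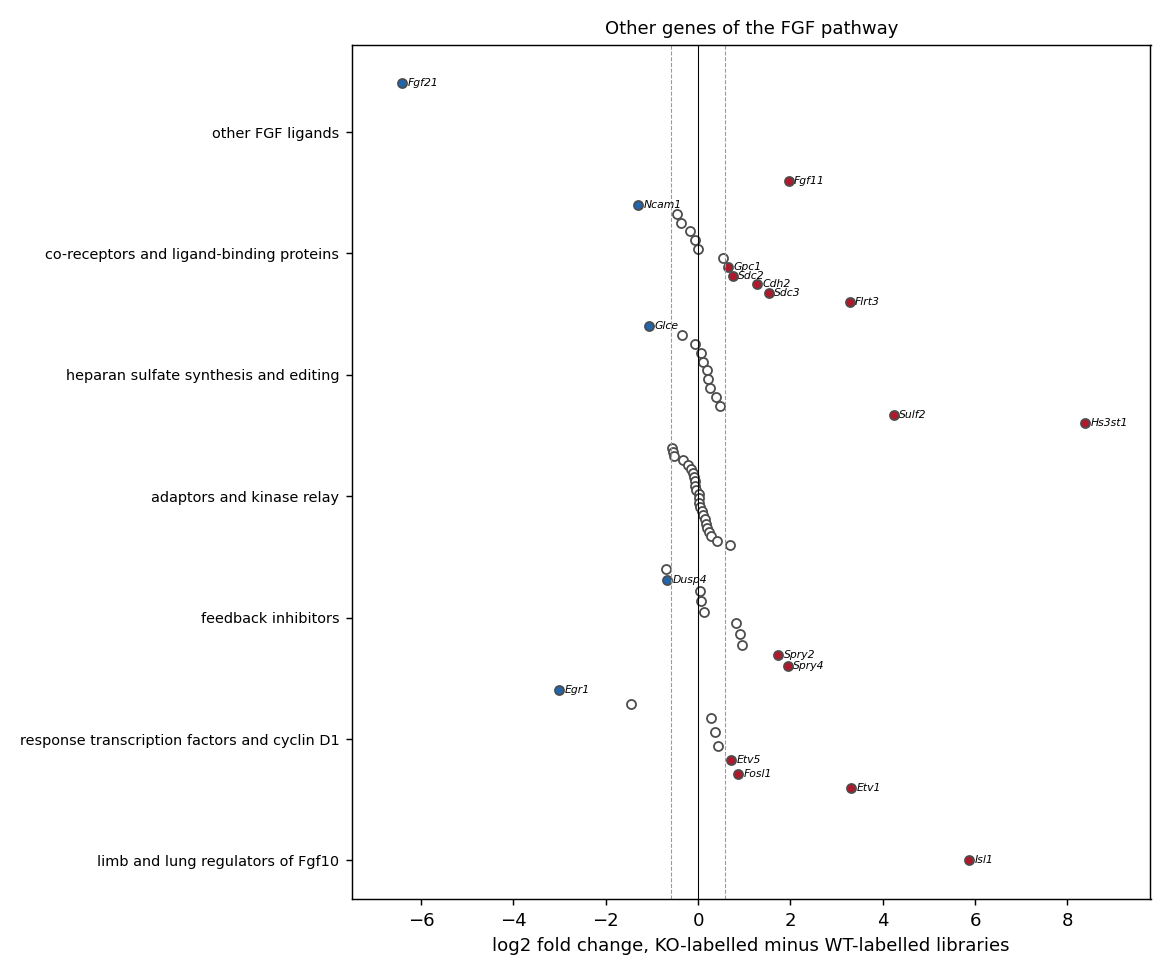
Log2 change of KO-labelled over WT-labelled libraries (x axis) for each tested gene of the pathway lists (rows of points), with filled points for genes called and dashed lines at the fold threshold. The values of Hs3st1 and Fgf21 are fitted ones that depend on the prior count, since 1 label is at or near 0 counts. The adaptors and kinases cluster near 0, while Sulf2, Etv1, Isl1 and Flrt3 lie above 3 and Egr1 and Fgf21 below -3.

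Markers of other cell types were read beside these results. Of the 4 keratin genes in the table, Krt8 and Krt18 were highest in MC010 and Krt14 and Krt19 in MC011. Krt8 had 293 and 274 CPM in MC010 against 1.31 and 1.28 in MC011 and 19.4 to 39.1 under the WT label. Line means of Krt19 were 1.49 CPM in MC010, 6.04 in MC011, 0.883 in MC654 and 1.23 in MC659, and those of Krt14 reached at most 0.891 CPM, in MC011. The summed level of the 6 of 8 epithelial markers in the table was 39.9 to 567 CPM under the KO label and 115 to 129 CPM under the WT label. Of the 6 tested, 2 were called higher under the KO label and none lower, against 13.7% and 8.72% of all genes. These were Epcam (2.20, edgeR adjusted p = 0.00858) and Krt19 (1.83, edgeR adjusted p = 0.0324). The defining genes Epcam and Cdh1 reached at most 1.19 and 0.394 CPM, in MC011. Endothelial markers, all 6 in the table, summed to 1.05 to 2.47 CPM under the KO label and 0.703 to 0.887 under the WT label. Of these, Tie1 and Tek were called higher under the KO label. Tie1 had line means of 1.41 CPM in MC010 and 0.483 in MC011 and was at 0 in all 4 WT-labelled libraries. Pecam1, Cdh5 and Vwf, which did not pass the test, had means of 0.136, 0.132 and 0.159 CPM under the KO label against 0.216, 0.293 and 0.207 under the WT label. The 4 of 7 hematopoietic markers in the table summed to 5.72 to 7.38 CPM under the KO label and 9.67 to 11.5 under the WT label. Cd68 had means of 6.06 CPM under the KO label and 9.10 under the WT label. Ptprc had 18 and 13 counts in MC010, 0 in both libraries of MC011 and 1 to 2 in the WT-labelled libraries. Cd79a had 10 to 17 counts under the KO label and 2 to 6 under the WT label, and neither it nor Ptprc was tested. Of the 2 tested, Csf1r was called lower under the KO label (-1.93, edgeR adjusted p = 0.00200). Of 6 skeletal muscle markers, 2 were in the table, with sums of 0 to 3.07 and 0.0471 to 0.167 CPM, and neither was tested. Both were highest in MC010 and at 0 in MC011. Myod1 had 281 and 204 counts in MC010 and 3 to 12 in the WT-labelled libraries. Des had 32 and 22 counts in MC010 and 1 to 7 in the WT-labelled libraries. Fibroblast markers summed to 9748 to 10525 CPM under the KO label and 14422 to 16165 under the WT label. Of the 10, 3 were called higher under the KO label (Pdgfra, S100a4 and Thy1) and 1 lower, against 13.7% and 8.72% of all genes. The lower one was Fn1, fibronectin, with means of 1587 CPM under the KO label and 7973 under the WT label. Thy1 was high in MC011 only, and its labels overlapped. Its line means were 70.2 CPM there, 12.3 in MC010, 9.23 in MC654 and 12.4 in MC659. The part of these differences in the FGF genes was not tested. In bulk RNA, fewer cells that express a gene and less RNA per cell cannot be told apart.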

How the data were processed

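Total RNA from the 4 lines was purified and made into stranded mRNA libraries. Per the labels, reads were aligned to mm10 (GRCm38.p6) with STAR 2.7.3a and counted on genes with HTSeq 0.11.2, as the submitters' processing notes name them. The study's text names other versions of these tools. The strand option is not given in the sources used here. The authors deposited raw gene counts, the same counts divided by 1 size factor per library (a signal), and their own DESeq2 comparison. The deposited signal was checked against the counts and not used further, and the authors' columns of fold changes and p-values were not used. Genes in the table had at least 20 counts in total.

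Raw counts were compared with edgeR 4.0.16 (R 4.3.3), with filterByExpr by label, TMM scaling and a robust quasi-likelihood test without covariates, over 8 libraries by label and by line. DESeq2 1.42.0 and limma 3.58.1 (voom) gave alternatives. A fold change is KO minus WT by label unless lines are named. Exon lengths are unions of GENCODE M21 exons. The genes named were the members, the pathway genes with the largest called changes in one direction over all pairs of lines, the gene of each list that differed most between MC010 and MC011, the 5 nearest to Fgf10, overlapping genes, markers and Irf8. Members, lists and tests were chosen with earlier results of these data known. On simulated counts the label fit recovered 197 of 197 changed genes, with 4 false among 14983 tested. The fit by line recovered 182 of 198, with 3 false among 14982. All changes put in were well past the fold threshold, so the recovery of changes near it was not examined. Apart from the changes put in, the simulated lines did not differ from each other, unlike the real ones. The simulation therefore cannot show how often differences between tumors are called as differences between the labels. Libraries of a line differed by more than sampling noise (chi-square per degree of freedom 7.51 to 12.8).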

Additional observations from a re-analysis of the deposited data

Results flagged for a closer look

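For 4 members the lines of the KO label differed from each other past both thresholds in the edgeR fit with 1 group per line, as MC010 minus MC011 on the log2 scale. These were Fgf5 (-3.66), Fgf7 (-0.62), Fgfr2 (-0.95) and Fgfr3 (-1.95), all lower in MC010. Each line is 1 tumor, so a difference between these lines and one between any 2 tumors cannot be told apart. No library stood apart from the other 3 of its label in any of 20 groups of 4 examined, where chance gives about 1 in 20. A group joins the libraries of both lines of a label, so this says little of members whose lines differ.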

How the results depend on the processing

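Upper-quartile scaling moved no count of called genes, members or pathway genes by over 1.5 times. DESeq2 called 1 member higher between the labels (Fgf5). With no filter, 1 was higher between the labels and 1 in MC010 than in MC011, and with the filter by line (chosen after seeing the data) 1 in MC010. Each time this was Fgf1, which these settings admit through MC010, where it is high, so that the count gained a gene and no call of another member changed. On line sums, edgeR called 0 genes higher, 0 lower, 0 members and 0 pathway genes, while 3658 genes had an unadjusted p under 0.05. Limma-voom with a random block for line called 1037 genes higher and 839 lower, and Fgf2 and Fgf7 among the members.

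With MC010 left out, 2056 genes were lower, 3 members higher and 1 lower, and 9 pathway genes lower. With MC011 left out, 3159 genes were higher and 2668 lower, 1 member higher and 11 pathway genes lower. That member was Fgf1, which the filter then admits through MC010, and no member of the main test was called higher. With MC654 left out, 1222 genes were higher and 857 lower, 1 member lower and 9 pathway genes higher. With MC659 left out, 1185 were higher and 699 lower, 1 member lower and 8 pathway genes higher. Without the fold threshold, 3151 were higher and 2524 lower between the labels, with 10 pathway genes lower, 4730 and 4820 between MC010 and MC011, with 1 member higher, and 831 and 1367 between MC654 and MC659, with 3 members higher.

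With each library left out in turn, 1812 to 2222 genes were higher and 1080 to 1434 lower between the labels, with 0 to 1 members higher, 1 to 3 lower, and 11 to 19 pathway genes higher and 5 to 8 lower. The member higher was Fgf5 without library 2 of MC010 and otherwise Fgf1, which is outside the main test and passes the filter in some of these fits. Between MC010 and MC011 the ranges were 2220 to 2448 and 2235 to 2496 genes, and 0 to 1 and 3 to 4 members. The member higher in MC010 was again Fgf1. Between MC654 and MC659 they were 139 to 193 and 416 to 574 genes, and 0 to 1 members each way.

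The library number is only a name, since deviations from the line means correlated between -0.0273 and 0.0552 over same-numbered libraries. As a replicate block it gave 1917 genes higher and 1189 lower. Among members the block ended the call of Fgfr2 (-0.81, adjusted p = 0.0731 from edgeR) and added one of Fgf18 between MC010 and MC011 (-1.46, adjusted p = 0.0311), and it ended that of Gpc1 (0.65, adjusted p = 0.0638). No other call followed here changed.

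Signs turned only for values that had not passed. Fgfr3 between the labels ran from -0.025 to 0.56 with 1 library left out, below 0 without either library of MC011 (-0.022 for library 2), and was -0.99 (adjusted p = 0.0294) without the line, Fgf5 was -0.40 without MC011, and Ctbp2 was 0.072 without MC010. Between MC654 and MC659, Fgf7 ran from -0.13 to 0.015, Fgf18 from -0.070 to 3.23 and Fgfr1 from -0.077 to 0.061 with 1 library left out. The cause was not tested. Of 832 single-gene values under alternatives, 710 kept their direction and their side of the thresholds. Low counts (Fgf18, Fgfr4, and Fgf1 outside MC010) limit what can be said of those genes.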

Other observations

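A pair of FGF-binding genes below the filter were each found in 1 KO-labelled line, and both were picked after their values were seen. Fgfbp1, a secreted carrier that frees FGFs from the matrix, had 316 and 187 counts in MC010 and 3 to 11 counts in the other 6 libraries. Gpc2, a glypican, had 105 and 114 counts in MC011, 1 in library 2 of MC654 and 0 in the other 5. Against the floor of 3 counts per library, Gpc2 was at least 30.6-fold higher in MC011 than in MC010.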
